A study of Homo sapiens with 6 samples.

Results

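The genes described here, the pseudogene POLR2J4 aside, encode subunits of nuclear RNA polymerases and of the Integrator complex, or the mitochondrial RNA polymerase. They were taken by symbol: every gene whose symbol in the array's annotation begins with POLR or INTS and that has a probe set naming that gene alone. This gave 39 of 12165 genes, 27 of them POLR and 12 INTS, read by 63 of 22215 probe sets. No measured value decided membership, but the family was put forward with the results of gedunin against DMSO in view. The counts and fold changes of that contrast are therefore a description of these arrays and support nothing further.

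The cells were LNCaP, a human prostate cancer line that depends on androgen, grown in RPMI with serum. They were exposed for 6 h to 20 µM gedunin, a limonoid natural product known as an inhibitor of the HSP90 chaperone pathway, or to DMSO, its solvent. The labels give 3 arrays for each group and number them as biological replicates. The values are RMA intensities, which are relative to all RNA on the array, so that fewer copies per cell and a larger share of other RNA cannot be told apart.

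An array labelled DMSO 3 went against its label and is shown apart. The summed intensity of 8 luminal prostate markers was 13217 to 14415 on the other 5 arrays and 207 on DMSO 3. The summed intensity of 10 leukocyte markers was 772 to 948 on those 5 arrays, where 1 of the 10, LCP1, exceeded the array's median, and 21563 on DMSO 3, where 8 did. Fold changes below compare gedunin 1, 2 and 3 with DMSO 1 and 2, on the log2 scale, with limma's moderated standard error (n = 3 and 2 arrays). A gene is said to have fallen or risen where its limma p, adjusted over all probe sets by the Benjamini-Hochberg method, was under 0.05.

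RNA polymerase I makes the ribosomal RNA precursor in the nucleolus, polymerase II makes messenger RNAs and most small nuclear RNAs, and polymerase III makes transfer RNAs, 5S ribosomal RNA and U6. The enzymes share a set of small subunits, and polymerases I and III share a further pair. Integrator binds polymerase II, cuts the 3′ ends of small nuclear RNAs and ends transcription of paused polymerase at many genes.

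Most of the family read lower after gedunin. Of the 39 genes, 16 fell and 0 rose, with a median log2 fold change of -0.27 against -0.017 over all 12165 genes. Over all genes, 9.35% fell and 8.22% rose. Values below 0 were found for 31 members, where 53.6% of all genes had one. At an unadjusted limma p of 0.05, 22 members were lower and 3 higher, where 17.3% of all genes were lower and 13.1% higher. The largest fall was that of POLR1C, to 37.7% of its DMSO level, followed by INTS9 (51.2%), POLRMT (55.9%) and POLR2J4 (61.5%). All 3 gedunin arrays lay below DMSO 1 and 2 for 28 members and above them for 5, and the groups overlapped for 6. Over all genes, 26% lay wholly below and 20.2% wholly above. Of the members, 36 were brighter than the median probe set, and 15 of those fell, where 15.1% of all genes of that brightness fell.

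The count rested on both DMSO arrays. It was 7 without DMSO 1 and 7 without DMSO 2, where the share of all genes that fell was 4.56% and 4.34%. With DMSO 3 added, limma called 0 members, and 0.353% of all genes fell and 1.32% rose. At an unadjusted limma p of 0.05 that fit had 18 members lower and 1 higher, where 6.4% of all genes were lower and 6.96% higher. Centring the arrays on GAPDH and ACTB moved the median of all genes to -0.19 and the count of members that fell to 26, and under it 25.8% of all genes fell and 5.35% rose.

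**Figure D1:**
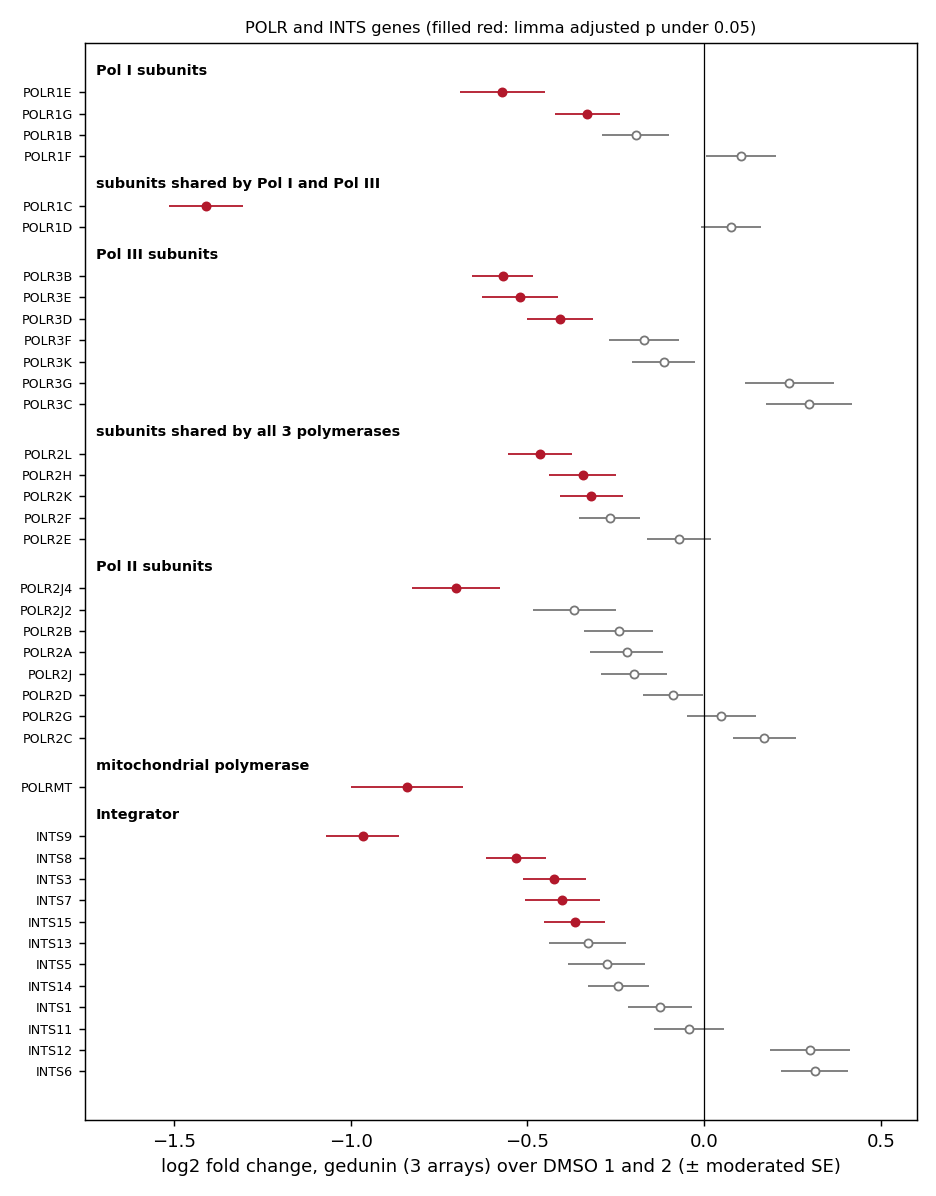
Log2 fold change of each of the 39 genes, gedunin over DMSO 1 and 2, with the moderated standard error as a horizontal bar. Genes are grouped by enzyme or complex, with the pseudogene POLR2J4 placed under polymerase II. The 16 filled red points are the genes that fell, and the largest fall is that of POLR1C at -1.41.

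Polymerases I and III share POLR1C and POLR1D, which pair with each other in the assembly platform of both enzymes. POLR1C read 210.4 and 216 on DMSO 1 and 2 and 77.7, 90.4 and 73.6 on gedunin 1 to 3. Every gedunin array was thus below 1 in 2 of the DMSO level, and the groups did not come near each other. The log2 fold change was -1.41 ± 0.10 (adjusted p = 1.61e-05), which ranks 9 from the lowest among 12165 genes. A second POLR1C probe set fell as well, by 0.88 ± 0.13 on the log2 scale (limma adjusted p = 0.00116).

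POLR1D, the partner of POLR1C, did not fall. It read 2075 and 2149 on DMSO 1 and 2 and 2252, 2150 and 2276 on gedunin 1 to 3. All gedunin arrays were slightly above the DMSO arrays, and the log2 fold change was 0.075 ± 0.086 (limma adjusted p = 0.647; 95% interval -0.12 to 0.27). The members of the pair thus differed in their own values, with intervals that did not meet, since that of POLR1C ran from -1.64 to -1.17.

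The RefSeq promoter windows of the pair are shown because its members read so differently; each runs from 250 bases before to 50 bases after the annotated start, on the plus strand of GRCh38.p14, and capitals mark matches to the motifs searched. The POLR1C window is chr6:43516839-43517138 and the POLR1D window chr13:27620493-27620792.
POLR1C: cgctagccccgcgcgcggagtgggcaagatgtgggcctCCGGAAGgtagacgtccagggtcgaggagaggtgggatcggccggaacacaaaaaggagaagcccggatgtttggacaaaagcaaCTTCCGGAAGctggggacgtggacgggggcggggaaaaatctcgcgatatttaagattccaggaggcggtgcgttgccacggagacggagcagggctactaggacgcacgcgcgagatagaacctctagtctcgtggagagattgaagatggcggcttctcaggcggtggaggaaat
POLR1D: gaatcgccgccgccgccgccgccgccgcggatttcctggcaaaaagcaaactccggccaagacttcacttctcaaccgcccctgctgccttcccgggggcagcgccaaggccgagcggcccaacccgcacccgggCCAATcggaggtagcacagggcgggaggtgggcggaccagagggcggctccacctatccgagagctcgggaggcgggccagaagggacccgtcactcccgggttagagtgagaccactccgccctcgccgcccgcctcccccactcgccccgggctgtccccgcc
The capitals in POLR1C are 3 matches to the ETS core CCGGAAG, of which an overlapping pair on opposite strands forms the longer run, and the capitals in POLR1D are 1 match to the NF-Y core CCAAT.

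Of the 39 members, 29 had a window in the RefSeq table. Both strands were searched, and matches may overlap. The ETS core CCGGAAG occurred in 11 of the 29 windows (37.9%), against 15.2% of the 9711 windows of genes on the array and 10.7% of all 27305. Among members it was in 3 of the 10 windows of genes that fell and in 8 of the 19 others, a share no larger among the genes that fell. The E-box CACGTG was in 4 windows (13.8%; 9.43% of genes on the array), the palindromic NRF1 core in 2 (6.9%; 1.91%), CCAAT in 9 (31%; 37.4%) and the heat shock unit GAANNTTC in 1 (3.45%; 5.23%). These matches describe letters in the windows and not sites of binding.

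**Figure D2:**
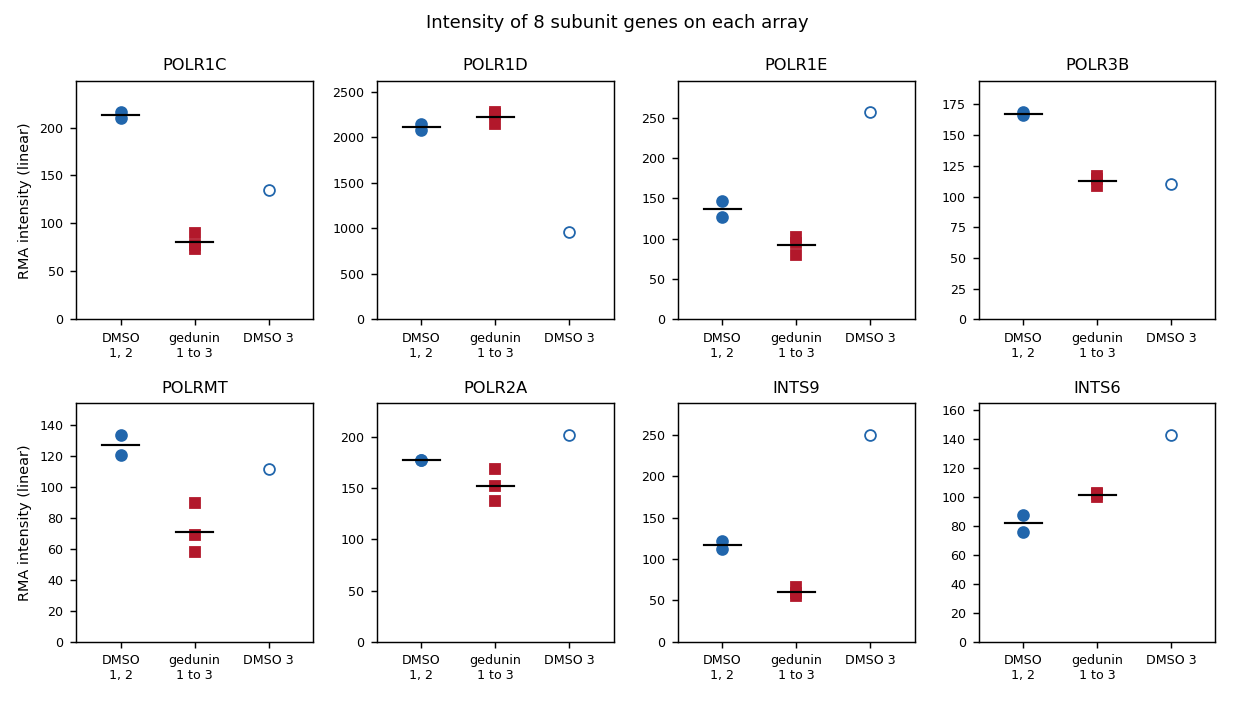
RMA intensity on each of the 6 arrays for 8 subunit genes, on linear axes from 0, with the geometric mean of DMSO 1 and 2 and of the 3 gedunin arrays as bars and the array labelled DMSO 3 as an open circle. POLR1C, POLR1E, POLR3B, POLRMT, POLR2A and INTS9 had every gedunin array below DMSO 1 and 2, while INTS6 had them above. For POLR1D the groups all but met, at 2150 on gedunin 2 and 2149 on DMSO 2.

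Of the 4 subunits found only in polymerase I, POLR1E and POLR1G fell. They encode the partners of a dimer that binds the body of the enzyme and helps it start and elongate. POLR1E read 147 and 127 on DMSO 1 and 2 and 80.2, 95.2 and 102 on gedunin 1 to 3. The groups were separate, although less widely than for POLR1C, and the log2 fold change of POLR1E was -0.57 ± 0.12 (limma adjusted p = 0.00964). POLR1G read 25.4 and 26.5 with DMSO and 19.2, 21.6 and 21.3 with gedunin (-0.33 ± 0.093, limma adjusted p = 0.0392), below the median probe set at 31.3. Without DMSO 1, POLR1E had -0.47 (limma adjusted p = 0.115). The call of POLR1G was lost without any 1 of the 5 arrays, with limma adjusted p from 0.0538 without gedunin 3 to 0.211 without DMSO 2. POLR1B, the second-largest subunit, had -0.19 ± 0.095 and POLR1F, a stalk subunit, 0.10 ± 0.099, neither called, and POLR1F also lay below the median probe set. The median of the 4 was -0.26.

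Of the 7 genes of polymerase III, 3 fell. POLR3B, the second-largest subunit and part of the active site, read 166 and 169 with DMSO and 114, 116 and 108 with gedunin. The groups were far apart beside the spread within each (-0.57 ± 0.086, limma adjusted p = 0.00155). POLR3E and POLR3D encode a dimer that serves in initiation and termination, the counterpart of POLR1E and POLR1G in polymerase I.

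POLR3E read 241 and 295 with DMSO and 174, 193 and 191 with gedunin (-0.52 ± 0.11, limma adjusted p = 0.00929). Its DMSO arrays differed from each other more than the gedunin arrays did, and without DMSO 2 the fall was 0.38 on the log2 scale (limma adjusted p = 0.109). POLR3D read 41.9 and 40.3 with DMSO and 32.1, 32.3 and 28.6 with gedunin (-0.41 ± 0.093, limma adjusted p = 0.0153), just above the median probe set. It was not called without DMSO 1 (limma adjusted p = 0.117) or without DMSO 2 (0.0776). The genes of both dimers thus read lower on every gedunin array.

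In a different group of polymerase III subunits, no gene was called on the probe set used. POLR3C, POLR3F and POLR3G encode the trimer that opens the promoter with the initiation factors, and their log2 fold changes were 0.30 ± 0.12, -0.17 ± 0.098 and 0.24 ± 0.13, none called. POLR3C read 164 and 150 with DMSO and 175, 226 and 180 with gedunin, separate but with gedunin 2 apart from the others. On its second probe set, POLR3C rose by 0.49 ± 0.11 (limma adjusted p = 0.0140), and on the mean of its probe sets by 0.39 (adjusted p = 0.0140). POLR3K, a small subunit that takes part in RNA cleavage, had -0.11 ± 0.089. The median of the 7 genes was -0.17. CRCP, a further polymerase III subunit whose symbol falls outside the rule, had -0.062 ± 0.090 and was not called.

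Of the 5 subunits shared by all 3 polymerases, 3 fell. POLR2L, a zinc-binding subunit of the assembly platform, read 2364 and 2160.3 with DMSO and 1584, 1637 and 1693 with gedunin (-0.46 ± 0.090, limma adjusted p = 0.00625). POLR2H read 662 and 698 with DMSO and 551, 565 and 494 with gedunin (-0.34 ± 0.095, limma adjusted p = 0.0364). POLR2K read 390 and 409 with DMSO and 302, 328 and 330.2 with gedunin (-0.32 ± 0.089, limma adjusted p = 0.0384). The groups were separate for each of these. POLR2F, which holds the clamp in place, had -0.27 ± 0.086 (limma adjusted p = 0.0662) with all gedunin arrays below DMSO 1 and 2, and POLR2E, a jaw subunit, had -0.070 ± 0.091, with overlap. The median of the 5 was -0.32, and all 5 values were below 0.

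The second probe set of POLR2K had -0.018 ± 0.11 and was not called, although it too was above the median probe set. The second of POLR2L had -0.23 ± 0.098 (limma adjusted p = 0.156). The falls of these subunits therefore rest on 1 probe set each. The call of POLR2K was lost without any 1 of the 5 arrays, with limma adjusted p from 0.0508 without gedunin 3 to 0.212 without DMSO 2. POLR2H was not called without gedunin 1, gedunin 3, DMSO 1 or DMSO 2 (limma adjusted p from 0.0642 to 0.211), and POLR2L was not called without DMSO 1 (0.0773).

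Of the subunits particular to polymerase II, copies of POLR2J aside, none was called. POLR2A encodes the largest subunit, whose C-terminal tail carries the phosphorylation that marks stages of transcription. It read 177.4 and 177.3 with DMSO and 138, 152 and 169 with gedunin. All gedunin arrays were lower, gedunin 3 by the least, and the log2 fold change was -0.22 ± 0.10 (limma adjusted p = 0.208; 95% interval -0.45 to 0.011). POLR2B, the second-largest subunit, read 921 and 914 with DMSO and 853, 735 and 745 with gedunin (-0.24 ± 0.097, limma adjusted p = 0.137).

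POLR2C and POLR2J form the counterpart of the POLR1C and POLR1D pair. They had 0.17 ± 0.089 and -0.20 ± 0.093, neither called. POLR2D and POLR2G form the stalk, and had -0.088 ± 0.085 and 0.049 ± 0.099. Of these 6 genes, limma called 0, and their median was -0.14. At an unadjusted limma p of 0.05, 1 was lower (16.7%), where 17.3% of all genes were. An absent call does not show that they were unaltered: the interval of POLR2B ran from -0.46 to -0.026 and that of POLR2J from -0.41 to 0.0086, while that of POLR2C, from -0.031 to 0.37, held no fall of the size seen in the shared subunits.

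The annotation also lists copies of POLR2J. POLR2J4, a pseudogene, fell on both of its probe sets, by 0.70 ± 0.13 (limma adjusted p = 0.00402) and 0.88 ± 0.18 (limma adjusted p = 0.00889). Without DMSO 2, the first had a limma adjusted p of 0.0516. POLR2J2, a copy of POLR2J, had -0.37 ± 0.12 (limma adjusted p = 0.0660) on the probe set used, and of its 4 further probe sets 1 fell, by 0.85 ± 0.15 (limma adjusted p = 0.00349), while 3 were below the median probe set. These genes are near copies, so their probe sets may share signal and a change cannot be given to 1 copy with certainty. A further probe set naming POLR2J3, POLR2J2 and POLR2J4 together had -0.51 ± 0.17 (limma adjusted p = 0.0714). Without the POLR2J family, 15 of 36 members fell. POLR2M was named only by 3 probe sets that also name other genes, and none of those was called.

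**Figure D3:**
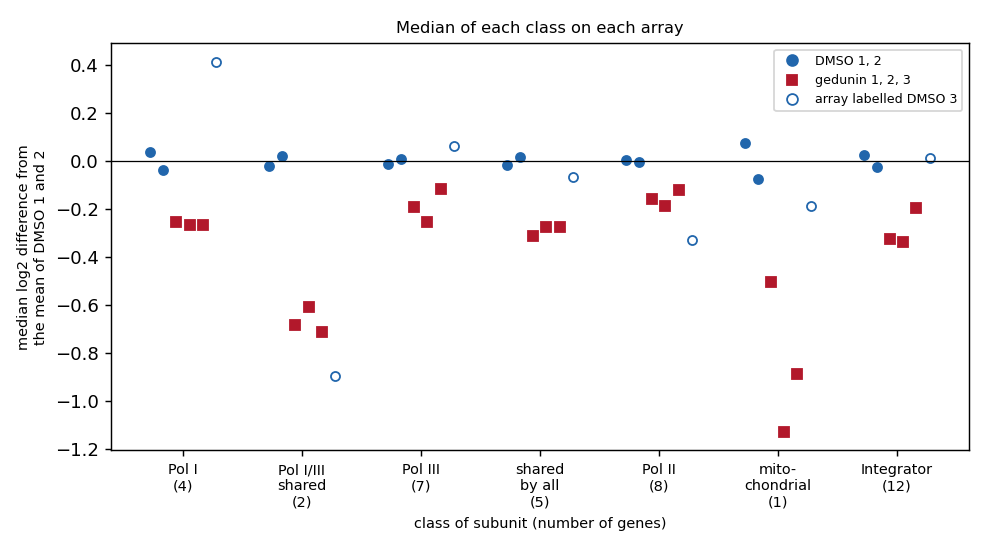
Median log2 difference from the mean of DMSO 1 and 2 for each class of subunit on each array. The number of genes is in parentheses and the array labelled DMSO 3 is an open circle. The polymerase II class includes the pseudogene POLR2J4. In every class the median on each gedunin array lay below those on DMSO 1 and 2. The medians on gedunin arrays ran from -0.11 for polymerase III on gedunin 3 to -1.13 for POLRMT on gedunin 2. The class shared by polymerases I and III holds 2 genes, of which POLR1D was not called (log2 fold change 0.075, limma adjusted p = 0.647).

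POLRMT, the single-subunit enzyme that transcribes mitochondrial DNA, read 134 and 121 on DMSO 1 and 2 and 89.8, 58.3 and 68.9 on gedunin 1 to 3. The groups were separate, although the gedunin arrays varied more than for most members (SD 0.31 on the log2 scale). The log2 fold change was -0.84 ± 0.16 (limma adjusted p = 0.00535). Its second probe set lay below the median probe set and had -0.076 ± 0.13. Without DMSO 1 the value was -0.77 (limma adjusted p = 0.0714). The promoter window of POLRMT, on the minus strand at chr19:633488-633787 (GRCh38.p14, RefSeq), is shown because it held the most kinds of motif among members that fell, with the matches to CCAAT, the ETS core and the NRF1 core, in that order, in capitals.
POLRMT: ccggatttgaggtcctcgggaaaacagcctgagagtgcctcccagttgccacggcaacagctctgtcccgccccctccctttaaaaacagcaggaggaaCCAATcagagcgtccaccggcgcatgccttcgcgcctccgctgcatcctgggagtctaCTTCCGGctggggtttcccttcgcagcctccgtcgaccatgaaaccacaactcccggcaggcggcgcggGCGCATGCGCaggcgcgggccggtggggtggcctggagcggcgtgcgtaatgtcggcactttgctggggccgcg

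Of the 12 Integrator genes, 5 fell and 0 rose, with a median of -0.30. At an unadjusted limma p of 0.05, 8 were lower (66.7%) and 2 higher (16.7%), where 17.3% of all genes were lower and 13.1% higher. INTS9 and INTS11 form the core of the cleavage module, in which INTS11 is the endonuclease and INTS9 its inactive partner. INTS9 read 122 and 113 on DMSO 1 and 2 and 55.1, 66.2 and 59.1 on gedunin 1 to 3. Every gedunin array stood near 1 in 2 of the DMSO level (-0.97 ± 0.10, limma adjusted p = 1.67e-04). INTS11 read 176 and 149 with DMSO and 151, 165 and 156 with gedunin. The groups overlapped, and its log2 fold change was -0.043 ± 0.10 (limma adjusted p = 0.839; 95% interval -0.27 to 0.18).

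INTS8, a scaffold subunit that links Integrator to the phosphatase PP2A, read 607 and 594 with DMSO and 428, 419 and 399.9 with gedunin (-0.53 ± 0.086, limma adjusted p = 0.00226). The spread within each group was small beside the distance between them. INTS3, which also serves a single-stranded DNA binding complex in repair, read 460.02 and 487 with DMSO and 338, 364 and 358 with gedunin (-0.42 ± 0.088, limma adjusted p = 0.00921). INTS7, a further scaffold subunit, had -0.40 ± 0.11 (limma adjusted p = 0.0300) and INTS15, a recently recognised subunit, -0.37 ± 0.086 (limma adjusted p = 0.0177), with all gedunin arrays below DMSO 1 and 2 for both. The second probe set of INTS3 and 1 of the further pair for INTS15 lay below the median probe set and had 0.0039 ± 0.086 and 0.036 ± 0.095. The other of that INTS15 pair lay above the median probe set and was not called either. It had -0.26 ± 0.13 (limma adjusted p = 0.249), and its groups overlapped. INTS3 was not called without DMSO 2 (limma adjusted p = 0.0896). INTS15 was not called without gedunin 2, DMSO 1 or DMSO 2 (limma adjusted p from 0.0507 to 0.137), nor INTS7 without gedunin 1, gedunin 2, DMSO 1 or DMSO 2 (from 0.0529 to 0.194).

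INTS13 and INTS14, which belong to 1 module of the complex, had -0.33 ± 0.11 (limma adjusted p = 0.0747) and -0.24 ± 0.087 (limma adjusted p = 0.0986). The scaffold subunits INTS5 and INTS1 had -0.28 ± 0.11 and -0.12 ± 0.090. None of these 4 was called, although all gedunin arrays lay below DMSO 1 and 2 for each. INTS6 and INTS12 pointed the other way. INTS6, which binds PP2A, read 87.5 and 75.9 with DMSO and 102, 102 and 99.7 with gedunin (0.31 ± 0.094, limma adjusted p = 0.0512), and its second probe set rose by 0.53 ± 0.086 (limma adjusted p = 0.00226). INTS12, a PHD-finger subunit, read 483 and 519.98 with DMSO and 539, 633 and 686 with gedunin (0.30 ± 0.11, limma adjusted p = 0.118). The PP2A-binding subunits INTS8 and INTS6 therefore stood on opposite sides of DMSO on every gedunin array.

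Probe sets of 1 gene did not always read alike. Of the 63 probe sets of members, 19 fell and 2 rose, where 8.17% of probe sets naming 1 gene fell and 7.68% rose. For 18 genes there was more than 1 probe set, and for 0 of them were probe sets called in opposite directions. Of the 8 genes that fell and had more than 1, a second probe set fell for 2, POLR1C and POLR2J4.

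**Figure D4:**
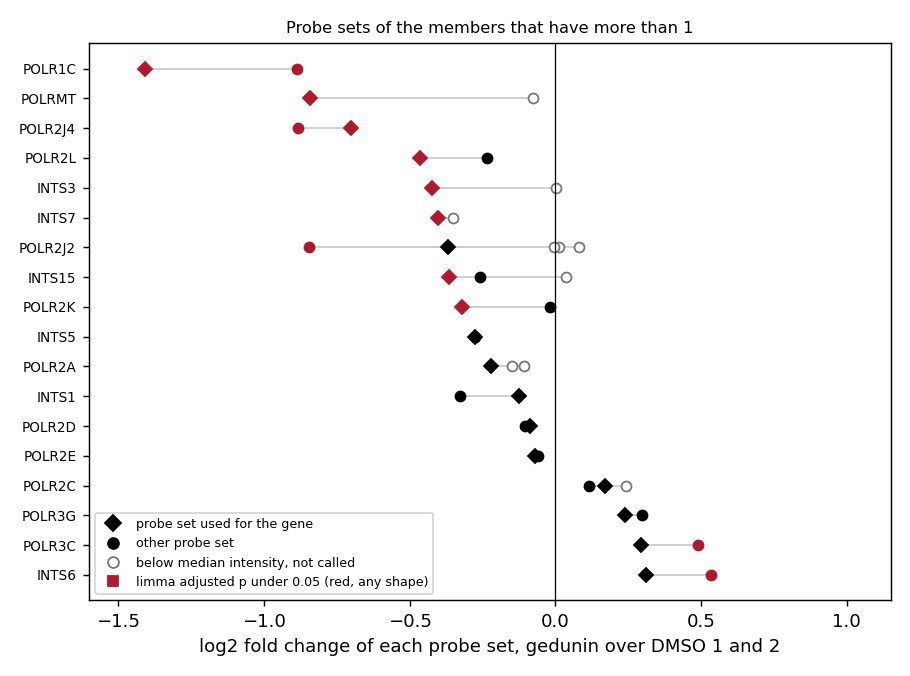
Log2 fold change of every probe set for the 18 members with more than 1, gedunin over DMSO 1 and 2, with the probe set used for the gene as a diamond and called probe sets in red. For POLR1C and POLR2J4 more than 1 probe set fell, and for INTS6 and POLR3C the called probe set is the one not used for the gene, on the right of 0.

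The factors that work with these enzymes moved in both directions. Over 92 measured genes of 6 lists and CRCP, 18 fell (19.6%) and 11 rose (12%), with a median of -0.060. Over all genes, 9.35% fell and 8.22% rose. Of the 92, 86 were brighter than the median probe set, and of all genes of that brightness 15.1% fell and 13.4% rose. The counts by list below are to be read beside these shares. Called genes numbered 29 in all, and 14 without DMSO 1 and 15 without DMSO 2. Centred on GAPDH and ACTB, 32 fell and 7 rose, where 25.8% of all genes fell and 5.35% rose. With DMSO 3 added, 2 were called, SNAPC4 and CSTF1, both lower.

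Of 14 polymerase III transcription factors, 2 rose and 2 fell. BRF2, the TFIIIB subunit used at U6-type promoters, read 48.3 and 53.8 with DMSO and 159, 164 and 147 with gedunin (1.62 ± 0.095, limma adjusted p = 2.89e-06). This was a rise where the subunits of polymerase III itself had none on the probe sets used. GTF3C3, a subunit of TFIIIC, rose by 1.05 ± 0.10, while SNAPC4, the DNA-binding subunit of the small nuclear RNA activating complex, fell by 0.91 ± 0.098 and GTF3C2, another TFIIIC subunit, by 0.40 ± 0.096.

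Of 8 polymerase I factors, BAZ2A, a subunit of a complex that silences ribosomal RNA genes, rose by 0.94 ± 0.098. The SL1 subunits TAF1C and TAF1B fell by 0.50 ± 0.10 and 0.37 ± 0.096. TAF1B lay below the median probe set. Of 17 general factors of polymerase II, 4 fell and 3 rose. The 4 were the TFIIH subunits GTF2H4 (-0.75 ± 0.091), GTF2H5 (-0.46 ± 0.086) and ERCC3 (-0.46 ± 0.13) and the TFIIE subunit GTF2E1 (-0.70 ± 0.12). GTF2H4 lay below the median probe set. The 3 that rose, named after their values were seen, included further TFIIH subunits, GTF2H1 (0.35 ± 0.090) and MNAT1 (0.40 ± 0.084), beside the TFIIF subunit GTF2F2 (0.40 ± 0.089). TFIIH genes were thus called in both directions.

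Of 21 pausing and elongation genes, 5 fell and 2 rose. CDK9, the kinase that releases paused polymerase II, fell by 0.68 ± 0.13, and NELFB, a subunit of the pausing factor NELF, by 0.60 ± 0.12. The super elongation complex scaffold AFF4 rose by 1.02 ± 0.16 and the elongation factor SUPT6H by 0.50 ± 0.12. Of 13 assembly factors, which build polymerases in the cytoplasm with the HSP90 cochaperone R2TP, 3 fell and 1 rose. GPN1, a GTPase for nuclear import of polymerase II, rose by 0.80 ± 0.096, while its relative GPN3 fell by 0.45 ± 0.10, RPAP1 by 0.53 ± 0.12 and URI1 by 0.42 ± 0.090.

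Of 18 genes of 3′ end processing, 2 rose and 2 fell. SLBP, which binds the histone mRNA stem-loop, rose by 1.12 ± 0.11 and the poly(A) polymerase PAPOLA by 0.45 ± 0.10. CSTF1 and CSTF2, subunits of the cleavage stimulation factor, fell by 0.98 ± 0.13 and 0.36 ± 0.095. In each of the 6 lists, as over all genes, some members were called in each direction, and medians ran from -0.10 to -0.014.

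On the array labelled DMSO 3, 14 of the 39 members lay within the range of the other 5 arrays. INTS9 read 251 there, at least 2-fold above DMSO 1 and 2, while POLR1D (960) and INTS1 (66.5) were at least 2-fold below. Over all genes, 8.54% were so far above and 12% so far below. POLR1C read 135 and POLRMT 112 on that array, between the gedunin arrays and DMSO 1 and 2. With all 6 arrays the log2 fold change was -1.19 ± 0.21 for POLR1C (limma adjusted p = 0.0821), -0.78 ± 0.18 for POLRMT (adjusted p = 0.152) and -1.33 ± 0.32 for INTS9 (adjusted p = 0.170).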

How the data were processed

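Total RNA of 6 LNCaP samples was hybridised to Affymetrix arrays. The authors deposited 22215 probe set intensities per array; RMA is the method that the submitters' processing notes name, without its version. The intensities were on a linear scale, so log2 was taken. Probe sets were named from the platform's annotation of 2016: 19724 named 1 gene, and a gene was represented by its probe set with the highest mean over 6 arrays. Limma 3.58.1 (R 4.3.3; lmFit and eBayes) compared gedunin 1 to 3 with DMSO 1 and 2 over all probe sets, with Benjamini-Hochberg adjustment, no filter and a threshold of 0.05. The code was tested on simulated data. The members and gene lists were chosen with earlier results of these data known. All members may be named. Of each further list, at most the 4 called genes with the largest change were to be named. The general factors of polymerase II that rose are named beyond that limit, after their values were seen. Alternatives covered arrays, scaling, filter, variance model, probe sets, log offset and threshold. Promoter windows came from RefSeq (GRCh38.p14). No raw arrays were used.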

Additional observations from a re-analysis of the deposited data

Results flagged for a closer look

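On the array labelled DMSO 3, kept out of the comparison of gedunin with DMSO 1 and 2, INTS9 read 251 against 122 and 113 on DMSO 1 and 2, at least 2-fold above both. The summed intensity of 10 leukocyte markers was 21563 on that array, against 772 to 948 on the other 5. Groups of 2 or 3 arrays were too small for a check of single outlying samples.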

How the results depend on the processing

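The number of members that fell, 16, was 7 to 14 when 1 of the 5 arrays was left out, 0 with all 6 arrays, 26 when centred on GAPDH and ACTB (25.8% of all genes fell), 10 of the 28 still measured without probe sets of suffix _x_at or _s_at (8.21%) and 10 at a threshold of 0.01 (4.6%). The number that rose, 0, was 0 to 1 when an array was left out, 2 on averaged probe sets and 1 with the replicate block, centring on the array median, a second quantile normalization, the filter on dim probe sets, eBayes with trend and robust, or log2 of the value plus 16. The median of -0.27 was -0.44 when centred on GAPDH and ACTB, of which ACTB itself rose. The other transcription genes called, 29, were 14 to 27 when an array was left out, 2 with all 6 arrays, 16 without _x_at and _s_at probe sets and 14 at the threshold of 0.01. Without those probe sets, INTS3 had 0.0039, read by its dim probe set. POLR1C, INTS9, INTS8 and POLR3B kept their calls in all 15 alternatives on the 5 arrays. The labels number the replicates without saying whether same-numbered samples were paired. Deviations of same-numbered arrays correlated at -0.033 and 0.039, and with 2 DMSO arrays these values cannot settle it. With the replicate block 13 members fell. The causes were not tested. The number of arrays limits precision.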
